A study of Mus musculus with 4 samples.

Results

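The chromosome 5 probes are the 2463 of 41174 gene probes on a mouse whole-genome array whose coordinates, as the array files give them, lie on chromosome 5. They were ordered by start position, and the lines were compared below 109 Mb, from 109 to 122 Mb, from 122 to 134 Mb and from 134 Mb to the end. This division was chosen on the difference between the mutant lines, in which stretches of the chromosome shift together, so the differences by position are a description and carry no test. The samples were neurospheres, free-floating cultures grown from neural stem cells, kept without serum and with EGF. The groups were the Dll1-5 mutant line (2 arrays), the Dll1-3 mutant line (2 arrays) and wild-type neurospheres, whose RNA was the other channel on all 4 arrays. Mutant and wild-type cells came from 129/Sv mice crossed with C57BL/6, and the labels do not say how the Dll1-5 and Dll1-3 alleles differ. Each RNA was pooled (3 per pool). Replicate 1 of a line carried mutant RNA in Cy5 and replicate 2 carried it in Cy3, so each line counts as 1 replicate and the replicate number is the dye orientation.

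Dll1 encodes a ligand of the Notch receptors, through which neighbouring neural progenitors restrain each other's differentiation. In neurospheres, Notch signalling is known for its part in the choice between self-renewal, neurons and glia. Mouse chromosome 5 carries several genes of this pathway, among them Rbpj, its DNA-binding effector, and Lfng, a glycosyltransferase that modifies the receptors. It also carries the Cxcl chemokine cluster and the Oas and Oasl antiviral genes, as well as cyclin-dependent kinases and replication factors. Dll1 itself does not lie on this chromosome.

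The promoters of 6 genes are shown because these genes are among those farthest apart between the lines in their stretch and have a promoter in the RefSeq table. Capitals mark motif matches on either strand, which may overlap. One motif searched was TATAA, at the core of the element that positions transcription starts in some promoters. Another was GGGCGG, the GC box bound by Sp1. The last was GAAANNGAA (N is any base), from the element through which interferons act. The sequences and positions are RefSeq's, assembly GRCm38.p6, written 5′ to 3′ on the gene's strand. The array's own coordinates name no build and differ from it.
Igfbp7 (chr5:77407996-77408295, minus strand): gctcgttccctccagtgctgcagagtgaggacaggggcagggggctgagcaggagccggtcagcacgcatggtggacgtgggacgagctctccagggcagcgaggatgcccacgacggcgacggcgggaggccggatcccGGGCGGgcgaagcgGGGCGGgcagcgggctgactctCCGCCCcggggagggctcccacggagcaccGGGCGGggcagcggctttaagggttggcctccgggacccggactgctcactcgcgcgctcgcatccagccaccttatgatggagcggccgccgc
Crlf2 (chr5:109558944-109559243, minus strand): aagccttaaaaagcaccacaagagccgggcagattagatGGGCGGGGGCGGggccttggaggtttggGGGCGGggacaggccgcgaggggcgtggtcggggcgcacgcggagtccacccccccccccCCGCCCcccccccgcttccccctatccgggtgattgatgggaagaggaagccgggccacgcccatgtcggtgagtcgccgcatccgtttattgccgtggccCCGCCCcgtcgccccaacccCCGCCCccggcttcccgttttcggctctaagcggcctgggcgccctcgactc
Tesc (chr5:118027493-118027792, plus strand): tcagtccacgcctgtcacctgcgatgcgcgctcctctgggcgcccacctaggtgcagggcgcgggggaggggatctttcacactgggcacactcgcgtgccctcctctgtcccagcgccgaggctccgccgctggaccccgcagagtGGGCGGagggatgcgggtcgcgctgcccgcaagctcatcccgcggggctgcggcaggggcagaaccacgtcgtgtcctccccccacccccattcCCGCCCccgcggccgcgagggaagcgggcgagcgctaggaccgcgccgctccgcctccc
Oasl2 (chr5:114896684-114896983, plus strand): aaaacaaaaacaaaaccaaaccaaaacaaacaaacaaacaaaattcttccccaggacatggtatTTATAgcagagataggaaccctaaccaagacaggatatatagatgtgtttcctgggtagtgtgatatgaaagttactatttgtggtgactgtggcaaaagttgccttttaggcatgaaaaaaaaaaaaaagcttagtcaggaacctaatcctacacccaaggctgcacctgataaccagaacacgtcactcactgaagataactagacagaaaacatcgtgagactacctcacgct
Gusb (chr5:130003000-130003299, minus strand): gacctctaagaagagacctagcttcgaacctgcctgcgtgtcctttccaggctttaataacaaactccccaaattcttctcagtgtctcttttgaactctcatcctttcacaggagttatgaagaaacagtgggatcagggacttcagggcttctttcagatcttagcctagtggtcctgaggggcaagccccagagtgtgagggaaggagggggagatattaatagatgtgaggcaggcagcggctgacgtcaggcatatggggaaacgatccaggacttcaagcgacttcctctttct
Gper1 (chr5:139422929-139423228, plus strand): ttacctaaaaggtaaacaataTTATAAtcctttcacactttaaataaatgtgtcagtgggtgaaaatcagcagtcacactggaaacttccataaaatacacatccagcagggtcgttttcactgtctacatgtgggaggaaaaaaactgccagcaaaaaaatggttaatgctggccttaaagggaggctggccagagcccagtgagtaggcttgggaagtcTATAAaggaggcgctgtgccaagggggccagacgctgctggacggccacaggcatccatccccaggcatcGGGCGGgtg
The Igfbp7, Crlf2 and Tesc windows are rich in G and C (73.3, 71.7 and 74.7%) and hold 4, 6 and 2 GC boxes. The Oasl2 window has 38.7% G and C and 1 TATAA match. The Gusb window holds none of the 3 motifs, and the Gper1 window holds 3 TATAA matches and 1 GC box. TATAA was found in 25.5% of all 27025 promoters of the table, GGGCGG in 35.9% and GAAANNGAA in 8.57%.

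All ratios are log2 of mutant RNA over wild-type RNA. Of the 2463 probes, 2093 (85.0%), for 1370 genes, were kept, those where at least 1 of the RNAs exceeded background clearly on both arrays of either line. Between 80 and 82.1% of all probes on the array were well above background in each channel. The targeted gene, Dll1, stood at -1.65 and -1.64 on the Dll1-5 arrays, against -3.31 and -3.22 on the Dll1-3 arrays. All 5 neurosphere markers (Nes, Sox2, Vim, Fabp7 and Prom1) were well above background in both channels of all 4 arrays, Prom1 close to it. Markers of microglia and of endothelium were above background for 3 of 5 genes each, with ratios from -0.34 to 0.20 in both lines. In bulk RNA, fewer cells of a type and less RNA per cell cannot be told apart. The small number of arrays limits the precision.

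Between the lines, the stretches of chromosome 5 had medians of opposite sign, and the whole chromosome lay near 0. Over the 2093 probes the median of Dll1-5 minus Dll1-3 was -0.016, against 0.004 over the other autosomes. The stretch from 109 to 122 Mb stood apart: its 323 probes had medians of -0.041 and -0.072 on the Dll1-5 arrays, against 0.070 and 0.071 on the Dll1-3 arrays. Both Dll1-5 arrays were thus below wild type and both Dll1-3 arrays above it, and the median probe difference was -0.105. From 134 Mb to the end, the 417 probes had medians of 0.037 and 0.020 on the Dll1-5 arrays, against 0.122 and 0.102 on the Dll1-3 arrays, with a median difference of -0.060. Below 109 Mb, 1159 probes had medians of 0.057 and 0.031 on the Dll1-5 arrays, against 0.022 and 0.001 on the Dll1-3 arrays, with a median difference of 0.024. Between 122 and 134 Mb, the 194 probes had medians of -0.053 and -0.049 on the Dll1-5 arrays, against -0.045 and -0.032 on the Dll1-3 arrays. Both Dll1-5 arrays lay just below both Dll1-3 arrays, all 4 below wild type, and the median difference was -0.027. The medians of the line means had the other order, -0.029 in Dll1-5 and -0.037 in Dll1-3. The order of the lines in this stretch thus depended on the summary used.

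**Figure D1:**
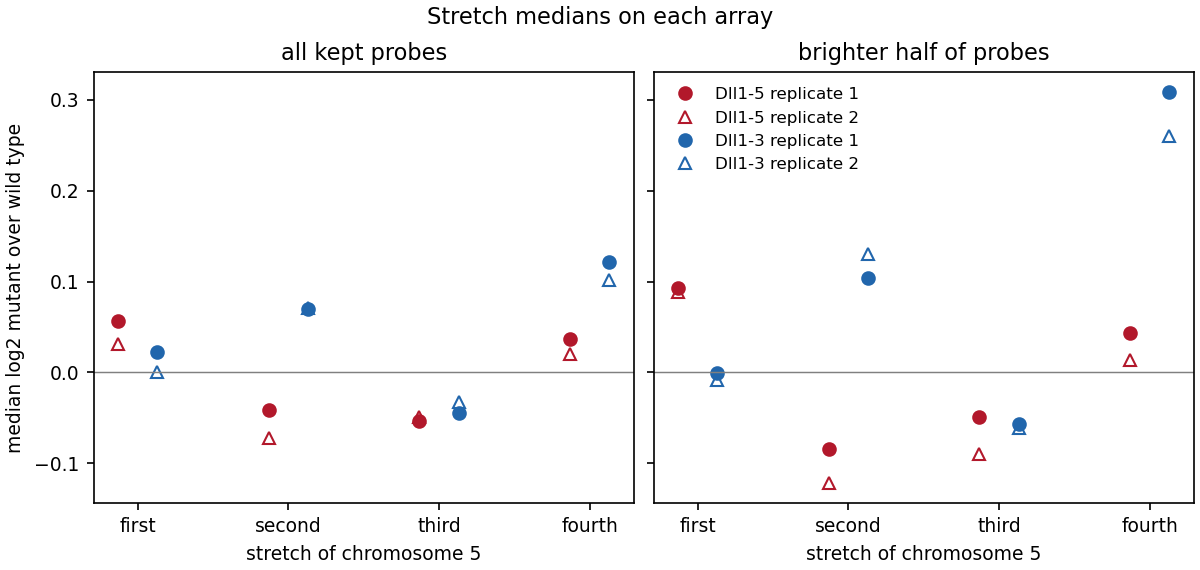
Median log2 ratio of mutant over wild type in each stretch of chromosome 5 (x axis, in order along the chromosome: below 109 Mb, 109 to 122 Mb, 122 to 134 Mb, 134 Mb to the end), for the 2093 probes kept (left) and the 1102 brighter ones (right). Each point is 1 array; in the second stretch both Dll1-5 arrays lie below 0 and both Dll1-3 arrays above it, in both panels.

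Counted by probe, the arrays of the lines did not overlap, with Dll1-5 lower, for 141 of 323 probes (43.7%) between 109 and 122 Mb, and with Dll1-5 higher for 51 (15.8%). Over all 34447 probes kept on the array, these shares were 25.4% lower and 27.2% higher. Beyond 134 Mb, 161 of 417 probes (38.6%) were lower in Dll1-5 without overlap and 93 (22.3%) higher. From 122 to 134 Mb the counts were 72 lower (37.1%) and 47 higher (24.2%), and below 109 Mb they were 279 lower (24.1%) and 362 higher (31.2%). Nothing is read from these shares beyond the description, since the stretches were drawn on this contrast. Within each stretch the probes varied widely. In the 109 to 122 Mb stretch the 10th and 90th percentiles of the difference were -0.72 and 0.19, and 31.9% of probes stood higher in Dll1-5.

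**Figure D2:**
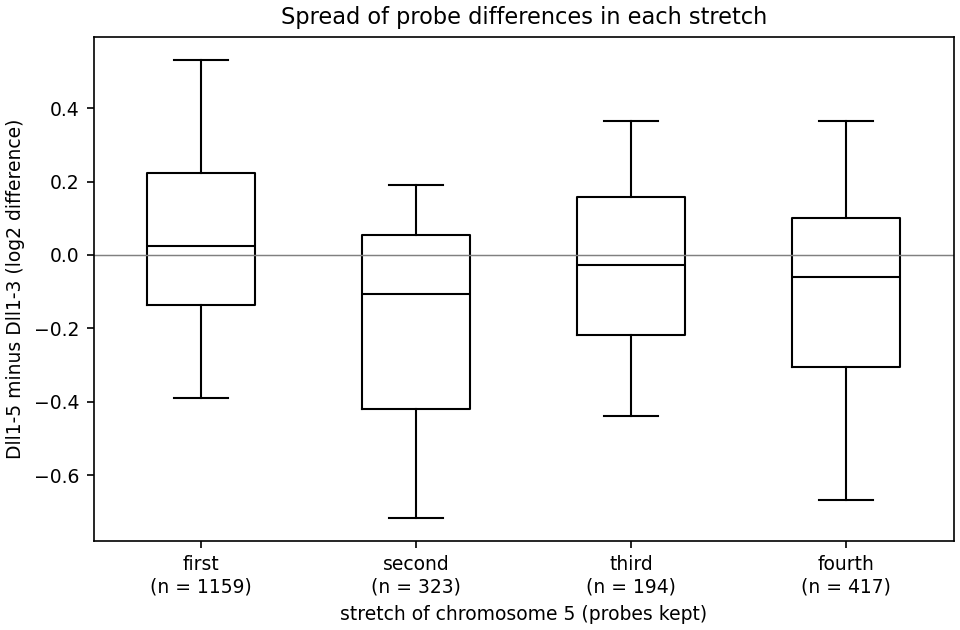
Difference of Dll1-5 minus Dll1-3 (log2, y axis) for the kept probes of each stretch (x axis). Lines are medians, boxes quartiles, and whiskers the 10th and 90th percentiles; the second stretch has its upper quartile at 0.05, and the others at 0.22, 0.16 and 0.10.

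The shifts were larger among the brighter probes than among all kept ones, though not evenly with intensity in every stretch. In dim, middle and bright classes of equal size over the array, the median difference from 109 to 122 Mb was -0.037, -0.124 and -0.276. Below 109 Mb it was -0.002, 0.040 and 0.071. From 122 to 134 Mb it was -0.005, -0.081 and -0.062. Beyond 134 Mb it was -0.024, -0.016 and -0.265. The offset of the background correction compresses the ratios of dim probes, and its part in these values was not tested. The brighter probes, a division made after seeing the data, are those with both RNAs well above background on all 4 arrays and a mean log2 intensity above 7.38, the median of the kept probes. Among them the median difference was 0.070 below 109 Mb (557 probes), -0.257 from 109 to 122 Mb (184), -0.079 from 122 to 134 Mb (124) and -0.173 beyond 134 Mb (237), against 0.019 on the other autosomes. In the 109 to 122 Mb stretch, Dll1-5 had a median of -0.093 and Dll1-3 one of 0.150. Beyond 134 Mb, Dll1-5 was near wild type at 0.003, while Dll1-3 stood at 0.285. By channel, mutant RNA differed between the lines by -0.274 in the 109 to 122 Mb stretch and by -0.178 beyond 134 Mb, and wild-type RNA by -0.026 and -0.020. The differences of these stretches thus lay almost wholly in the mutant channel.

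**Figure D3:**
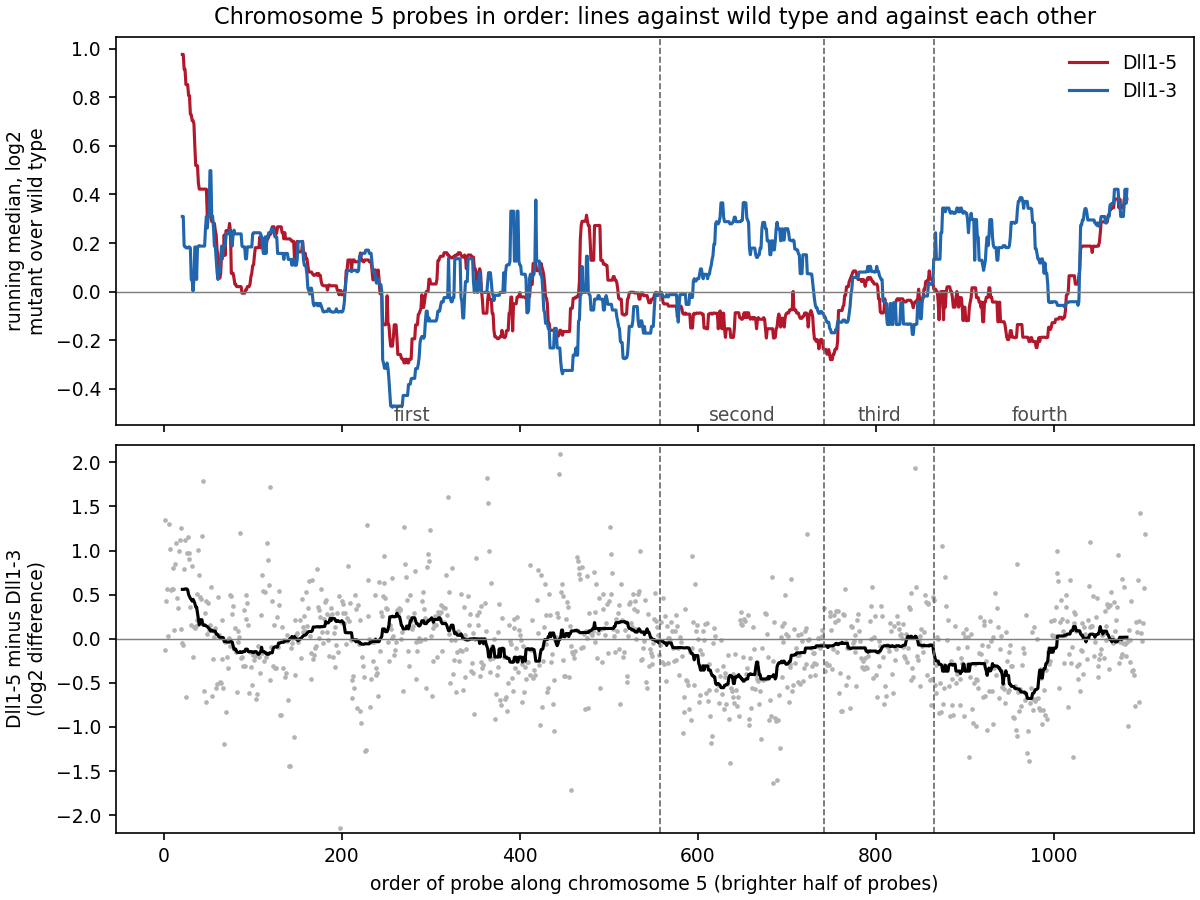
Running median over 41 neighbouring probes of log2 mutant over wild type for each line (top), and of Dll1-5 minus Dll1-3 (bottom, grey points are single probes), along the 1102 brighter probes in order of position. Dashed lines mark the inner boundaries, and 5 points lie outside the lower axis; Dll1-5 lies above Dll1-3 at the start of the chromosome and below it through most of the second stretch and the start of the stretch beyond 134 Mb.

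In windows of 10 Mb, which were singled out after their values were seen, the shifts did not fill the stretches. The first 10 Mb, inside the stretch below 109 Mb, had a median difference of 0.562 over 44 brighter probes, the 3rd highest of 225 windows with at least 20 such probes. Dll1-5 stood there at a median of 0.884 and Dll1-3 at 0.191, and the arrays of 75.0% of these probes lay higher in Dll1-5 without overlap. Over all brighter probes on the array, that share was 36.5%. The window from 110 to 120 Mb had a median difference of -0.424 (14th lowest, 110 probes) and that from 130 to 140 Mb one of -0.381 (18th lowest, 146 probes). From 120 to 130 Mb it was -0.095, and from 140 to 150 Mb it was 0.057, so the far end of the chromosome did not share the lower level in Dll1-5. Windows on the other autosomes ranged from -0.870 to 0.744 around a median of 0.016 (212 windows). Over whole chromosomes the median difference of the brighter probes was -0.036 on chromosome 5, against -0.286 on chromosome 13 and -0.151 on chromosome 3.

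The first 10 Mb held 55 genes on the array, and the arrays of 37 stood higher in Dll1-5 without overlap and those of 4 lower. Over all 1370 chromosome 5 genes, 403 stood higher and 422 lower by the same rule. Counted by kept probe, 65.6% of the window stood higher and 5.38% lower, against 27.2% and 25.4% over the array. Examples come from the window's 8 brightest named genes. Cdk6, a cyclin-dependent kinase of the G1 phase, had 1.97 and 1.51 on the Dll1-5 arrays, against 0.46 and 0.33 on the Dll1-3 arrays. Its other probes differed by less, 0.18 and 0.44. Fzd1, a Wnt receptor, was high in both lines, at 3.37 and 3.50 in Dll1-5 and at 2.31 and 2.33 in Dll1-3. Gatad1, a GATA zinc finger protein, had 2.02 and 1.75 in Dll1-5 and 1.44 and 1.19 in Dll1-3. Ankib1, an ankyrin-repeat protein, had 1.00 and 0.61 in Dll1-5 and 0.24 and -0.23 in Dll1-3, a difference of 0.80. Its other probes differed by 0.10, 0.30 and -0.05. Sri, which encodes the calcium-binding protein sorcin, had 0.83 and 0.37 in Dll1-5 and -0.05 and -0.40 in Dll1-3. On the brightest probe of each of these 5 genes, both Dll1-5 arrays lay above both Dll1-3 arrays. Not every bright gene of the window did so. In Cyp51, an enzyme of cholesterol synthesis, the arrays of the lines overlapped, at 1.18 and 1.35 in Dll1-5 and 1.15 and 1.47 in Dll1-3. The Hspa8 probe of this window is placed on another chromosome by RefSeq.

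The genes farthest apart between the lines were not all on the side of their stretch's median. Below 109 Mb, Igfbp7, a secreted binding protein of insulin-like growth factors (probe at 76593576 to 76593635 in the array's coordinates), had 0.30 and 0.31 on the Dll1-5 arrays, against -2.58 and -2.28 on the Dll1-3 arrays. It was slightly above wild type in Dll1-5 and well below it in Dll1-3, a difference of 2.73. Crlf2, a subunit of the receptor for thymic stromal lymphopoietin (108634221 to 108634280), went the other way, with -3.08 and -3.16 in Dll1-5 and 0.03 and -0.18 in Dll1-3. Yes1, a kinase of the Src family, had -2.40 and -2.06 in Dll1-5 and -0.25 and 0.08 in Dll1-3. Both genes were near wild type in Dll1-3 alone. Dmp1, a matrix protein of bone and dentin, had 0.20 and 0.08 in Dll1-5 and 2.02 and 2.09 in Dll1-3. Parm1 differed by 2.09, and its other probe by 0.53. Mthfd2l, an enzyme of mitochondrial folate metabolism, had 1.63 on the 1 Dll1-5 array that measured it, against -0.15 and -0.31 in Dll1-3. Its other probe, which had no such gap, stood at -0.04 and -0.26 in Dll1-5 and at -0.04 and -0.11 in Dll1-3.

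From 109 to 122 Mb, Tesc, which encodes the calcium-binding protein tescalcin (117190253 to 117190312), was above wild type in Dll1-5 at 1.58 and 1.49 and below it in Dll1-3 at -1.29 and -1.05. This difference of 2.71 ran against the stretch's median. Rad9b, a relative of a checkpoint clamp subunit, differed by 1.19, with its other probe at 0.07. Grk3, a kinase of G-protein-coupled receptors, differed by 0.94, and its other probes by 0.10 and 0.19. Tpcn1, an endolysosomal cation channel, had -1.22 and -1.24 in Dll1-5 and 0.41 and 0.40 in Dll1-3. Its other probes were also lower in Dll1-5, with line means of -0.26 and -0.92 in Dll1-5 and of 0.29 and -0.66 in Dll1-3. The neighbouring interferon-induced genes Oasl2 and Oasl1 were well above wild type in Dll1-3 and dim in Dll1-5. Oasl2 had 2.85 and 2.99 in Dll1-3, where wild-type RNA exceeded background clearly on 1 of 2 arrays, and on the Dll1-5 arrays neither RNA was well above background. Oasl1 had 2.22 and 1.86 in Dll1-3. On the Dll1-5 arrays its wild-type RNA was not well above background, and mutant RNA was at least 1.24-fold higher. Such a bound sets the mutant mean against, on each array, the higher of the wild-type probe's own level and the dimmest level that was well above background.

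From 122 to 134 Mb, Gusb, the lysosomal enzyme beta-glucuronidase (129159087 to 129159146), had 0.50 and 0.57 on the Dll1-5 arrays, against -2.58 and -2.16 on the Dll1-3 arrays. Its other probe lay at 0.55 and 0.52 in Dll1-5 and at -1.45 and -1.36 in Dll1-3, so both probes were above wild type in Dll1-5 and below it in Dll1-3. Rflna, a filamin-binding protein, had 2.39 and 2.70 in Dll1-5. On the Dll1-3 arrays neither RNA of Rflna was well above background. Phkg1, a catalytic subunit of phosphorylase kinase, had -1.76 and -1.61 in Dll1-5 and -2.66 and -2.43 in Dll1-3, where mutant RNA was well above background on 1 array. Abcb9, a lysosomal peptide transporter, had 1.28 and 1.60 in Dll1-5 and 2.11 and 2.34 in Dll1-3. Limk1, a kinase that phosphorylates cofilin, had -0.30 and -0.33 in Dll1-5 and 0.44 and 0.43 in Dll1-3. Bri3bp differed by -0.65, and all 5 of its probes had that sign.

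From 134 Mb to the end, Gper1, a G-protein-coupled oestrogen receptor (138424887 to 138424946), had -0.10 and -0.36 on the Dll1-5 arrays, against 1.29 and 1.02 on the Dll1-3 arrays. Gpr146, an orphan receptor gene nearby, had 0.06 and -0.16 in Dll1-5 and 1.09 and 0.90 in Dll1-3. On these probes both genes were near wild type in Dll1-5 and above it in Dll1-3. The other probe of Gpr146 had no such gap, with 0.16 and 0.24 in Dll1-5 and 0.19 and 0.43 in Dll1-3. Pcolce, an enhancer of procollagen processing, was above wild type in both lines, at 1.71 and 1.77 in Dll1-5 and at 2.75 and 2.79 in Dll1-3. In the other direction, Mm2pr had 2.45 and 2.64 in Dll1-5 and 0.78 and 0.64 in Dll1-3, where wild-type RNA was clearly above background on 1 array. N4bp2l1 differed by 1.43 and Tecpr1, a protein of autophagosome fusion, by 1.09. Of the 23 such genes of all stretches that were measured on every array, the mutant channel differed between the lines by more than the wild-type channel in all 23. These genes were picked on the difference between the lines, each set against wild-type RNA, so this count is a description and carries no test.

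**Figure D4:**
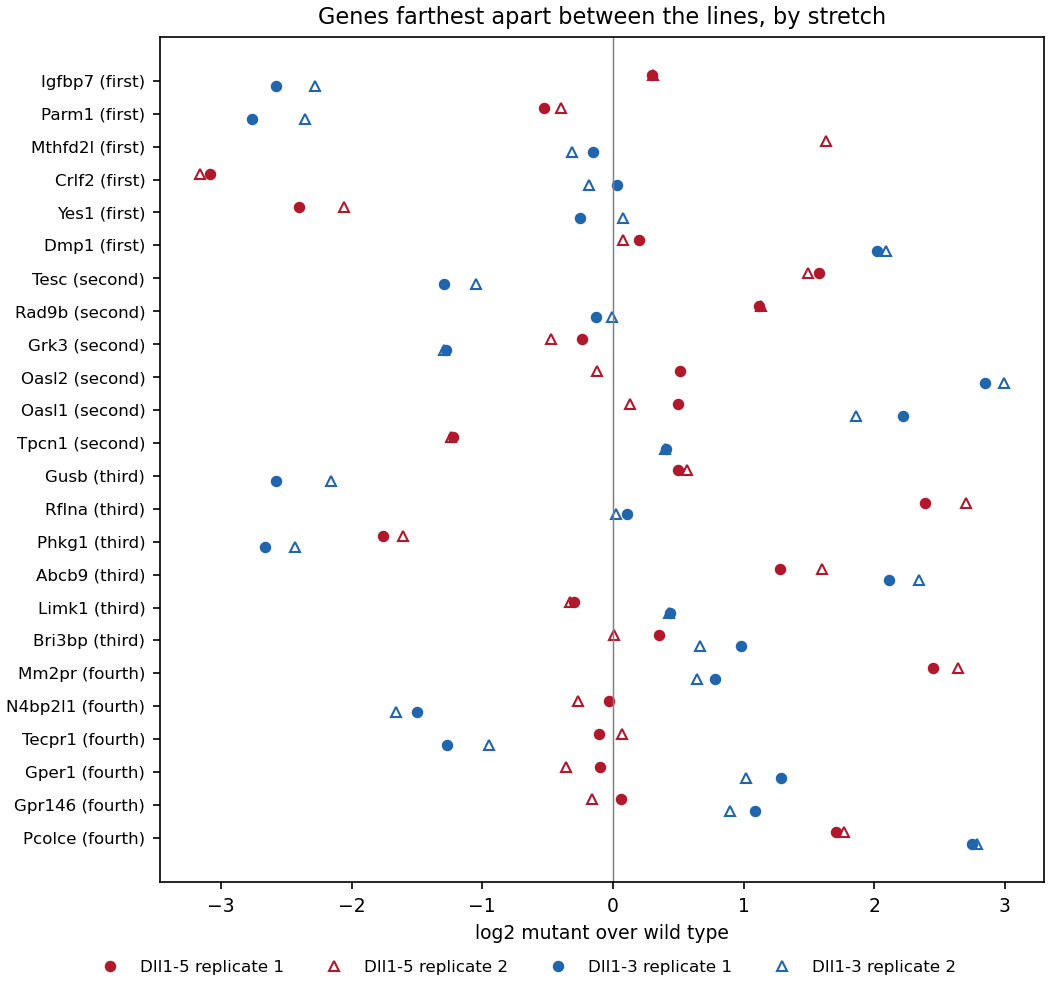
Log2 mutant over wild type on each array (x axis) for the 3 genes highest and the 3 lowest in Dll1-5 minus Dll1-3 in each stretch (named in brackets), among genes whose arrays do not overlap between the lines. Circles are replicate 1 and triangles replicate 2; the arrays of a line lie close together, and Igfbp7, Tesc and Gusb lie on opposite sides of 0 in the lines. On the Dll1-5 arrays neither RNA of Oasl2 was well above background, nor either RNA of Rflna on the Dll1-3 arrays.

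Within the windows that stood lower in Dll1-5, the 8 brightest named genes were taken as examples. From 110 to 120 Mb the arrays of 70 of 146 genes stood lower in Dll1-5 without overlap and those of 26 higher. Counted by kept probe, 47.1% of the window stood lower and 14.2% higher, against 25.4% and 27.2% over the array. Among the 8 examples, Pop5, a subunit of RNase P, had 0.13 and 0.16 in Dll1-5 and 0.72 and 0.75 in Dll1-3. Srsf9, a splicing factor, had -0.21 and -0.17 in Dll1-5 and 0.28 and 0.51 in Dll1-3. Sppl3, an intramembrane protease, had -0.68 and -0.69 in Dll1-5 and -0.34 and -0.26 in Dll1-3. These 3, and with them Pebp1 (-0.46) and Dynll1 (-0.18), were lower in Dll1-5 on both arrays. Iqcd differed by 0.19, with -0.18 and -0.36 in Dll1-5 and -0.35 and -0.57 in Dll1-3. The arrays of Rplp0, a ribosomal protein gene, disagreed within each line by more than 2 on the log2 scale (-1.47 and 0.96 in Dll1-5, -1.55 and 0.64 in Dll1-3), and no difference is read from it. Cox6a1 was measured on 3 arrays that also disagreed.

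From 130 to 140 Mb the arrays of 86 of 168 genes stood lower in Dll1-5 without overlap and those of 30 higher. Counted by kept probe, 48.6% of the window stood lower and 15.2% higher, against 25.4% and 27.2% over the array. Mcm7, a subunit of the replicative helicase, had 0.95 and 0.91 in Dll1-5 and 1.52 and 1.47 in Dll1-3. Eif3b, a translation initiation factor, had 0.61 and 0.67 in Dll1-5 and 1.49 and 1.41 in Dll1-3. Ap1s1, a clathrin adaptor subunit, had -0.48 and -0.41 in Dll1-5 and 0.49 and 0.59 in Dll1-3. Cops6, Por and Ttyh3 differed by -0.51, -0.75 and -0.91, so 6 of the 8 brightest named genes lay lower in Dll1-5 on both arrays. The other two were Mdh2 (-0.29), whose arrays overlapped, and Fzd9, a Wnt receptor, which had 0.65 and 0.57 in Dll1-5 and -0.42 and -0.47 in Dll1-3. From 140 to 150 Mb, 27 of 132 genes stood lower in Dll1-5 without overlap and 42 higher. By kept probe, 23.9% of this window stood lower and 31.3% higher, near the shares over the array. Arpc1b, a subunit of the actin-nucleating Arp2/3 complex, had 1.35 and 1.38 in Dll1-5 and 0.87 and 0.92 in Dll1-3. Of the 8 brightest named genes of this window, Hsph1 (0.66) and Bri3 (0.14) were also higher in Dll1-5 without overlap. Pdap1 (-0.43), Hmgb1 (-0.37), Atp5j2 (-0.22) and Pomp (-0.19) were lower without overlap, and the arrays of Rac1 overlapped.

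The probes beside each boundary show the values just inside and just outside it. The last kept probe before 109 Mb was that of Crlf2, given above, and the first past it that of Zfp932, a zinc finger gene, at -0.16 and -0.33 in Dll1-5 and at -0.10 and -0.24 in Dll1-3. At 122 Mb, an Anapc5 probe had 0.15 and 0.15 in Dll1-5 and 0.20 and 0.23 in Dll1-3, and the next, of Rnf34, had -0.43 and -0.17 in Dll1-5 and -0.75 and -0.54 in Dll1-3. At 134 Mb, the claudin genes Cldn4 and Cldn3 differed by 0.02 and -0.01.

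Against wild type, the lines were compared over both by limma's moderated test on the 2 line means, a contrast the stretches were not drawn on. With Benjamini-Hochberg adjustment over 34445 probes, 0% of probes passed an adjusted p of 0.05 on the array and 0 on chromosome 5, where the smallest adjusted p was 0.0756. At an unadjusted p under 0.05, 292 chromosome 5 probes (14.0%) were higher and 282 (13.5%) lower, against 11.7% higher and 15.2% lower over all probes tested. The count past the adjusted threshold rested on single arrays: without Dll1-3 replicate 1 it was 165 (of 2402 called among 34372 probes on the array), without Dll1-5 replicate 2 it was 200 (of 2830 among 34335), and it was 0 without either of the other arrays. By size alone, 74 chromosome 5 probes (3.54%) were at least 2-fold higher on both Dll1-5 arrays and 68 (3.25%) lower, against 2.57% and 3.05% over the array. In Dll1-3, 111 (5.3%) were at least 2-fold higher on both arrays and 84 (4.01%) lower, against 3.99% and 5.2%. P-values measure the spread between these lines, leave out the spread of wild-type pools, and may in part be technical.

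Genes at the top and bottom of that comparison lay on the same side of wild type on all 4 arrays, without passing the adjusted threshold. Spp1, the secreted phosphoprotein osteopontin, had 2.56 and 2.64 in Dll1-5 and 3.28 and 3.39 in Dll1-3. Over both lines it averaged 2.97 ± 0.52 (SD, n = 2 lines), with a limma adjusted p of 0.0756. Fzd1 averaged 2.88 ± 0.79, Ociad2 2.67 ± 0.16, Cxcl10, an interferon-induced chemokine, 2.46 ± 1.21, and Pcolce 2.25 ± 0.73. At the other end, Slc4a4, a sodium bicarbonate cotransporter of astrocytes, had -3.62 and -3.66 in Dll1-5 and -3.12 and -3.23 in Dll1-3. Its other probes were nearer 0, with line means from -0.82 to -0.49. Gjc3, a connexin of oligodendrocytes, averaged -2.91 ± 0.10, Mmd2 -2.87 ± 0.71, Cyp3a13, a cytochrome P450, -2.72 ± 0.25, and Kit, the stem cell factor receptor, -2.60 ± 0.16. Their limma adjusted p-values were between 0.0756 and 0.0781. Marker sets of glia lay lower in the mutants as well, but so did those of neurons and of neurospheres. The summed linear signal of 5 neuron markers was 924 to 1008 in Dll1-5 and 948 to 998 in Dll1-3, against 1571 to 1771 in wild type. For the neurosphere markers it was 73639 to 76598 in Dll1-5 and 53164 to 66051 in Dll1-3, against 82446 to 95334. The sets of microglia and blood, endothelium and fibroblasts did not lie wholly below wild type. The summed linear signal of 5 astrocyte markers was 5603 to 5958 in Dll1-5 and 2754 to 2926 in Dll1-3, against 8303 to 9200 in wild type, and that of 5 oligodendrocyte markers 3847 to 4371 in Dll1-5 and 3114 to 3743 in Dll1-3, against 6757 to 7235 in wild type. In the oligodendrocyte set, Mbp and Mog were close to background, and the bright Mag stood at 0.07 in Dll1-5 and -0.25 in Dll1-3. The astrocyte sum rested largely on its brightest gene, S100b, at -0.49 in Dll1-5 and -1.90 in Dll1-3. Aqp4 stood at 0.19 in Dll1-5 and -0.02 in Dll1-3, so the sets did not fall gene by gene. The part of these cell types in the chromosome 5 values was not tested.

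Of the gene lists, cell cycle and DNA replication genes lay highest. Of 29 such genes, 17 were higher at an unadjusted p under 0.05, 1 was lower (Ccng2, a cyclin) and none passed the adjusted threshold. Over all 1370 chromosome 5 genes, 200 were higher and 203 lower by the same rule. The list's median was 0.61 in Dll1-5 and 0.57 in Dll1-3, against 0.01 and 0.02 over all chromosome 5 genes. Kntc1, of the spindle checkpoint, had 1.03 and 1.14 in Dll1-5 and 1.61 and 1.61 in Dll1-3. Rfc5, a subunit of the clamp loader, had 0.92 and 1.24 in Dll1-5 and 2.11 and 2.31 in Dll1-3. Ung, which removes uracil from DNA, had 1.29 and 1.31 in Dll1-5 and 1.98 and 1.85 in Dll1-3. Tacc3, a spindle protein, had 1.05 and 1.05 in Dll1-5 and 1.62 and 1.61 in Dll1-3. In these 4 genes both lines lay above wild type and Dll1-3 farther above it. Pole, the catalytic subunit of DNA polymerase epsilon, was alike in both, at 1.06 and 1.24 in Dll1-5 and 1.07 and 1.21 in Dll1-3. Between the lines, the arrays of 9 list genes stood higher in Dll1-5 without overlap and those of 15 lower, against 403 and 422 of all 1370 chromosome 5 genes, and the list's median difference was -0.21. The 9 include Nsd2, a histone methyltransferase, 5 of whose other probes had the opposite sign. Among the 9, Cdk14, a cyclin-dependent kinase of the first 10 Mb, had 1.25 and 1.06 in Dll1-5 and 0.26 and 0.11 in Dll1-3. Another of its probes had no such gap, with line means of -0.03 in Dll1-5 and 0.00 in Dll1-3. The probes of Brca2, a DNA repair gene, disagreed on the order of the lines: one had means of 1.08 in Dll1-5 and 1.80 in Dll1-3, the other 2.45 in Dll1-5 and 0.93 in Dll1-3.

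**Figure D5:**
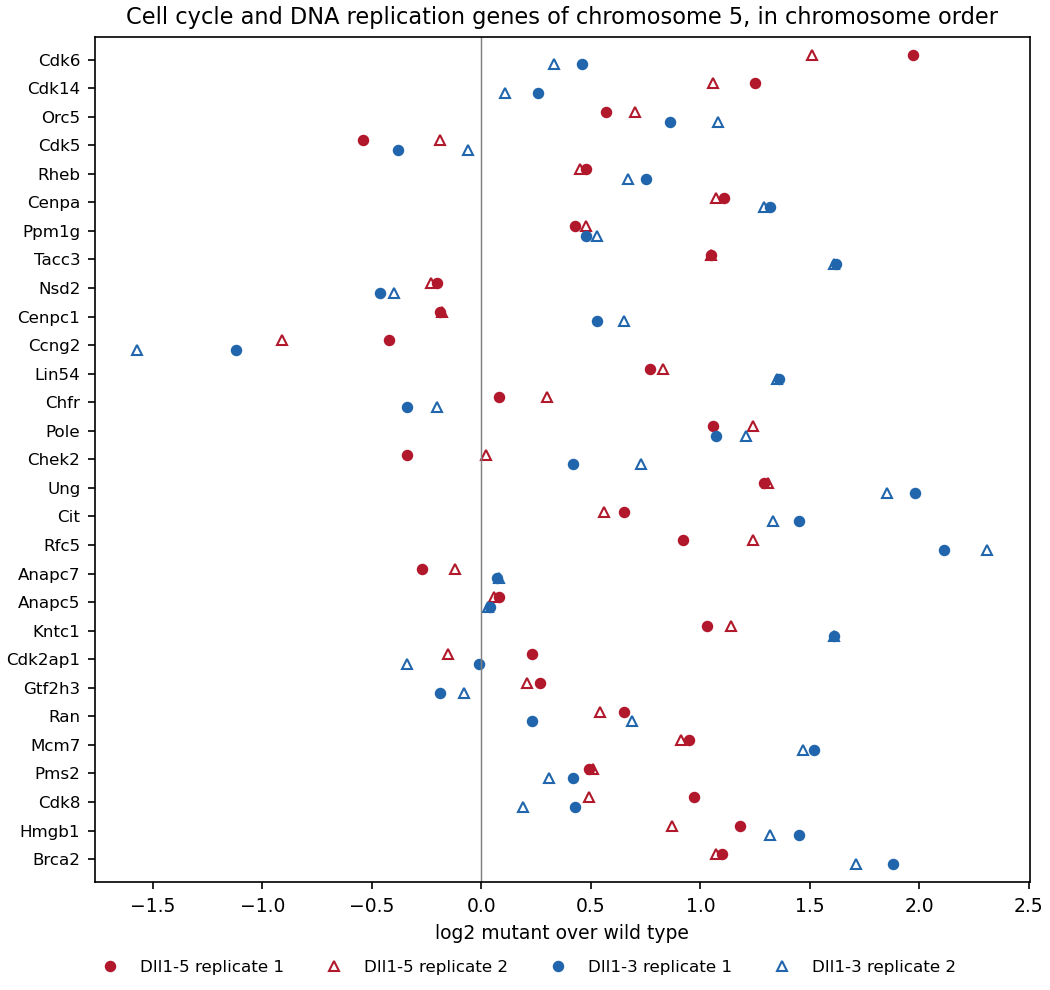
Log2 mutant over wild type on each array (x axis) for the 29 cell cycle and DNA replication genes of chromosome 5 that were kept, from top to bottom in order along the chromosome. Circles are replicate 1 and triangles replicate 2; Cdk6 and Cdk14 at the top lie higher in Dll1-5, while Ung, Cit, Rfc5 and Kntc1 lie higher in Dll1-3.

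Of 5 Notch pathway genes on the chromosome, 0 passed limma's adjusted threshold over both lines, and with unadjusted p under 0.05 there were 0 higher and 1 lower. Over all 1370 chromosome 5 genes, 200 were higher and 203 lower at that unadjusted p. Dtx1, which encodes the ubiquitin ligase Deltex and is a known Notch target, had -2.29 and -2.07 in Dll1-5 and -0.69 and -0.47 in Dll1-3 (limma adjusted p = 0.231 over both lines). It lay below wild type on all 4 arrays and farther below it in Dll1-5. Rbpj stood near wild type, at 0.02 and 0.04 in Dll1-5 and -0.07 and 0.02 in Dll1-3. Lfng had -0.54 and -0.02 in Dll1-5, both below wild type, and 0.34 and -0.19 in Dll1-3, on either side of it. The probes of Msi1, an RNA-binding protein of neural progenitors, disagreed on the order of the lines.

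Among 16 growth factor and receptor genes, 3 lay higher and 6 lower with unadjusted p under 0.05, against 200 and 203 of all 1370 chromosome 5 genes. The list's medians were -0.21 in Dll1-5 and -0.18 in Dll1-3. Fgfr3, a fibroblast growth factor receptor, had -0.99 and -1.14 in Dll1-5 and -1.33 and -1.47 in Dll1-3. Pdgfra, the receptor of oligodendrocyte precursors, had -1.47 and -1.86 in Dll1-5 and -1.79 and -1.78 in Dll1-3, while its other probe had line means of 0.04 in Dll1-5 and 0.10 in Dll1-3. Pdgfa, which encodes a ligand of that receptor, lay on opposite sides of wild type, at -0.59 and -0.91 in Dll1-5 and 0.44 and 0.13 in Dll1-3. Its other probe did the same, at -0.61 and -0.55 in Dll1-5 and 0.57 and 0.49 in Dll1-3. Insig1, a regulator of sterol synthesis on this list, had 0.85 and 0.86 in Dll1-5 and 1.02 and 1.34 in Dll1-3.

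Among 13 interferon and chemokine genes, 1 lay higher and 1 lower with unadjusted p under 0.05, against 200 and 203 of all 1370 chromosome 5 genes. Cxcl10 had 1.74 and 1.47 in Dll1-5 and 3.39 and 3.25 in Dll1-3, above wild type in both lines. The members of the Oas cluster were dim. Oas1a, an oligoadenylate synthetase, had -0.01 and 0.29 in Dll1-5 and 0.55 and 0.56 in Dll1-3, while for Oas1b, Oas2 and Oasl2 neither RNA was well above background on the Dll1-5 arrays. Trafd1, an inhibitor of innate immune signalling, had -1.39 and -1.42 in Dll1-5 and -1.57 and -1.59 in Dll1-3.

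Of 27 neural development genes, none was higher and 7 were lower at an unadjusted p under 0.05, with medians of 0.03 in Dll1-5 and -0.04 in Dll1-3. For this list and the lists that follow, the same rule gave 200 higher and 203 lower of all 1370 chromosome 5 genes. Crmp1, of the collapsin response mediators, had -1.70 and -1.93 in Dll1-5 and -1.13 and -1.31 in Dll1-3. Uchl1, a neuronal ubiquitin hydrolase, had -1.39 and -1.42 in Dll1-5 and -1.13 and -1.14 in Dll1-3. Hopx, a homeodomain protein of neural stem cells, had -0.41 and -0.51 in Dll1-5 and -1.41 and -1.18 in Dll1-3. Of 19 glial, matrix and stress genes, 3 were higher and 5 lower by that rule, the lower ones including Sparcl1, an astrocyte matrix protein, at -1.44 and -1.18 in Dll1-5 and -1.75 and -1.46 in Dll1-3. Of 15 housekeeping genes, 1 was higher and 4 lower, and Actb, beta-actin, had -0.65 and -0.55 in Dll1-5 and -0.45 and -0.20 in Dll1-3.

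Agreement in sign between probes and between neighbouring genes rests on the same difference as the division by position and is a description. Of 498 chromosome 5 genes with several kept probes, 61.6% had all probe differences between the lines of the same sign, against 59.5% of 6716 genes on the other autosomes. Neighbouring genes had differences of the same sign in 55.9% of 1369 pairs, against 55.0% of 20278. Median promoter G and C was 61.7, 63.2, 62.7 and 61.0% in the stretches in order, over 876 genes with a promoter in the table. GGGCGG was found in 61.0% of them, TATAA in 13.4% and GAAANNGAA in 7.08%, against 54.0, 19.2 and 7.54% for genes kept on the other autosomes. By stretch in order, the GAAANNGAA share was 6.0, 11.2, 5.0 and 7.69%, and neither the Oasl1 nor the Oasl2 promoter held a match.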

How the data were processed

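The authors deposited one Agilent Feature Extraction file per array (version 8.1.1.1, per the file headers), with the intensity of each channel and a log10 ratio of Cy5 over Cy3, along with processed log10 values for the series, which ran wild type over mutant (r with mutant over wild type from -0.961 to -0.953). The centring of these values is not stated in these sources. The labels give the dyes.

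Mean signals were background-corrected with normexp (offset 50), normalised by loess within each array (span 0.3) and turned to log2 mutant over wild type in limma 3.58.1, R 4.3.3 and the data.table package, version 1.17.8. Control spots (2256 of 43790) and 50, 78, 115 and 27 outlier spots were left out, and saturated spots were kept. The arrays of a line were averaged, and limma tested the 2 line means against 0 (residual df 1, prior df 1.73), with Benjamini-Hochberg adjustment. The fit was first tested on simulated data.

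Of the 2093 chromosome 5 probes kept, 1243 were named through RefSeq (GRCm38.p6) by accession, 293 by symbol and 213 by synonym, and 344 kept the file's name. RefSeq placed 1740 on chromosome 5 and 9 elsewhere. A gene is its probe of highest mean intensity, and 19 probes lacked an array. Named genes were the list members, the 3 highest and 3 lowest differences per stretch, the 5 highest and lowest means over both lines with 1 sign, and the probes beside each boundary. The 8 brightest genes of some windows were chosen after values were seen. A few genes that this rule names are not reported here. Members and lists were chosen with earlier results of these data known.

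Same-numbered arrays share a dye orientation, and their deviations from the line means correlated (r = 0.678), with 1 number pair across the lines. Alternatives covered offset, normalisation, filters, boundaries, arrays left out and the replicate block.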

Additional observations from a re-analysis of the deposited data

Results flagged for a closer look

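In the results below, both arrays of Dll1-5 lay on one side of wild type and both arrays of Dll1-3 on the other. None of these differences between the lines was tested. Among the stretches this held for the median of the brighter probes below 109 Mb (Dll1-5 minus Dll1-3 of 0.070), and from 109 to 122 Mb for all kept probes (-0.105) and for the brighter ones (-0.257). Among single genes with Dll1-5 above wild type and Dll1-3 below it, the difference was 2.91 for Gusb, 2.73 for Igfbp7, 2.71 for Tesc, 1.60 for Sel1l3, 1.19 for Rad9b, 1.05 for Fzd9, 0.63 for Nos1, 0.46 for Chfr, 0.38 for Gtf2h3 and 0.17 for Sema3a. Sel1l3 had 1.33 and 1.07 in Dll1-5 and -0.36 and -0.45 in Dll1-3, but its other probe had line means of 0.09 in Dll1-5 and -0.04 in Dll1-3. With Dll1-5 below wild type and Dll1-3 above it, the difference was -1.64 for Tpcn1, -1.39 for Gper1, -1.03 for Pdgfa, -0.77 for Cenpc1, -0.75 for Limk1, -0.50 for Ywhag, -0.27 for Anapc7 and -0.21 for Ppargc1a. Other probes of Anapc7 and Ppargc1a had the opposite sign. Nos1, the neuronal nitric oxide synthase, had 0.29 and 0.23 in Dll1-5 and -0.33 and -0.43 in Dll1-3. Cenpc1, a centromere protein, had -0.19 and -0.18 in Dll1-5 and 0.53 and 0.65 in Dll1-3. Ywhag, a phosphoserine-binding adaptor, had -0.13 and -0.18 in Dll1-5 and 0.33 and 0.36 in Dll1-3.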

How the results depend on the processing

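The stretches' median probe differences kept their direction under all settings run, and their size varied. The median difference from 109 to 122 Mb (-0.105) was -0.257 among the brighter probes, -0.216 in the deposited table, -0.220 with the scanner's ratio, -0.152 with median centring and -0.163 with an offset of 10. From 122 to 134 Mb (-0.027) it was -0.079, -0.050, -0.050 and -0.064 under the first 4 of these, -0.016 with 1 probe per gene, -0.053 with a stricter filter on dim probes, and -0.056 and -0.072 with the boundaries moved down and up by 2 Mb. From 134 Mb to the end (-0.060) it was -0.173, -0.116, -0.105, -0.079 and -0.089 under the same 5 settings, and -0.036 with the boundaries moved up. Below 109 Mb (0.024) it was 0.070 among the brighter probes, and 0.008 both with median centring and with no filter on dim probes. Leaving out 1 array at a time gave -0.141 to -0.103 from 109 to 122 Mb, -0.043 to -0.030 from 122 to 134 Mb, -0.082 to -0.064 beyond 134 Mb and 0.014 to 0.054 below 109 Mb. Dll1-3 against wild type changed sign from 122 to 134 Mb (-0.037, against 0.030 with the boundaries moved up) and below 109 Mb (0.015, against -0.006 among the brighter probes). The brighter probes were added after seeing the data. The cause was not tested.

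At 1.5-fold in place of 2-fold, probes past the fold on both arrays numbered 186 higher and 150 lower in Dll1-5 and 256 higher and 200 lower in Dll1-3. In the deposited table they numbered 144, 141, 194 and 162 in that order, with the scanner's ratio 151, 144, 198 and 167, and with median centring, which does not remove dye curvature, 29, 36, 51 and 42. Probes without overlap between the lines numbered 166 higher and 123 lower in Dll1-5 with median centring, and 422 lower with 1 probe per gene, which counts fewer probes. Probes past the adjusted threshold over both lines (0) numbered 597 (of 9624 among 34198 probes on the array) with the 4 arrays as separate samples and the replicate block, 709 (of 11301) without the block, 115 (of 1718 among 34445) with an offset of 10, 66 (of 956) with the scanner's ratio and 113 with an intensity trend; at an unadjusted p they numbered 574. Counting dye-swapped arrays as separate samples treats them as replicates. Leaving out 1 array gave 0 to 200. All these are counts of chromosome 5 probes. Those without an array-wide count beside them show only how the number moved with the setting.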
